A study of Rattus norvegicus with 27 samples.

Results

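The genes described here are 7 members of the Rgs family, Rgs2, Rgs4, Rgs7, Rgs8, Rgs10, Rgs14 and Rgs16, out of 18166 genes that could be named on an Affymetrix Rat Gene 2.0 array. A probe set was taken where the platform annotation gave it 1 of these symbols and no other, and the brightest was kept for each gene. All 7 had such a probe set, and all 7 passed the filter on low values, which left 12716 genes. Rgs2 was chosen from its level in ischemic against sham rats in CA1 total RNA, where its change ranks 6 of 12716 genes. Why the other 6 were listed is not recorded.

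The RNA came from hippocampal CA1 and CA3 of male Long Evans rats. In the 8R rats the blood flow of the whole brain was stopped for 10 min at normal body temperature, through occlusion of both carotid arteries with low blood volume and pressure, and 8 h of reperfusion followed. The NIC rats were sham operated and had no ischemia. Regions of 5 rats were pooled for each array, so a value is that of a pool and not of a rat. From a supernatant cleared of mitochondria, 1 share gave total RNA and the rest was spun through sucrose to pellet polysomes, the complexes of mRNA and ribosomes. There were 4 arrays of 8R CA1 total RNA, 3 of 8R CA1 polysome RNA and 4 each of 8R CA3 total and polysome RNA, against 3 NIC arrays in each of the 4 corresponding groups. Labels number the arrays 1 to 4 in 8R and 1 to 3 in NIC. These numbers were taken as those of pools shared by total and polysome RNA, and arrays are given in their order below. 8R CA1 polysome RNA has numbers 1, 3 and 4. No label says that pools of different numbers were prepared on separate days, so p-values measure the spread between these pools.

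Rgs proteins end G protein signals. When a receptor activates a G protein, its alpha subunit binds GTP and signals until that GTP is hydrolysed, and an Rgs protein speeds up the hydrolysis. The family is divided by sequence into subfamilies that differ in the alpha subunits and partner proteins they bind, and in neurons its members limit how long transmitters act through their receptors.

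Array medians over the named genes lay between 40.4 and 57.4, and the lowest correlation between 2 arrays of a group was 0.946. Deviations of 8R number 4 from the group means correlated between its 4 arrays, with r from 0.54 to 0.78, so results between 8R and NIC described below are also given without number 4 where this changes a call. The region labels were checked on marker genes. In 8R total RNA the 7 CA1 pyramidal markers summed to between 823 and 1380 in CA1 and between 399 and 481 in CA3. In NIC total RNA they summed to between 1070 and 1230 in CA1 and between 453 and 472 in CA3. For the 9 CA3 pyramidal markers the NIC total RNA sums were closer, 737 to 806 in CA1 and 901 to 953 in CA3. In NIC polysome RNA the sums of these 9 overlapped, 957 to 1090 in CA1 and 1060 to 1130 in CA3. The 10 microglia markers summed higher in 8R than in NIC in all 4 settings, for example between 532 and 605 on 8R arrays and between 444 and 488 on NIC arrays of CA1 total RNA, and 3 of the 8 tested rose there, where 20.1% of all genes did. The 9 astrocyte markers summed to between 4610 and 5330 on 8R arrays and between 3610 and 3800 on NIC arrays of CA1 total RNA, and 4 of the 9 rose. In pooled tissue, fewer cells of a type and less RNA per cell cannot be told apart, and the part of cell makeup in the results below was not tested.

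Genes changed in one direction more often than in the other, and this depended on scaling. With the deposited values, 76.6% of the genes called in CA1 total RNA were higher in 8R (52.6% after quantile normalization), 58.5% in CA1 polysome RNA (41.4% with arrays scaled to 1 median), 91.4% in CA3 total RNA (59.1% after quantile normalization) and 89.6% in CA3 polysome RNA (50.8% with arrays scaled to 1 median). Median changes of all genes between 8R and NIC were at most 0.09 log2 in size. Between NIC groups, the median gene was 0.23 log2 higher in CA1 than in CA3 polysome RNA and 0.20 higher in polysome than in total RNA of CA1. Quantile normalization moved these shifts to -0.00 and 0.01, so values of single genes in these comparisons are read against them. It also lowered the share of calls that were higher there from 97.4% to 58.9% and from 89.5% to 56.7%, and scaling to 1 median raised that share from 56.0% to 74.7% for polysome against total RNA of NIC CA3.

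Rgs2 (probe set 17684906) belongs to the R4 subfamily and acts mainly on Gq alpha subunits, which signal through phospholipase C. In neurons its mRNA is known to be induced by synaptic activity and by cAMP. As it is the member with the largest change, the 250 bases before its annotated start are shown (RefSeq, GRCr8, chr13:58352667-58352916, minus strand, 5′ to 3′ in the direction of the gene), with a match to CGTCA, the core of the cAMP response element, in capitals. The same stretch of Rgs4 (chr13:84475885-84476134, minus strand) is shown for comparison, with CGTCA and TATAAA, the TATA box, in capitals.
Rgs2: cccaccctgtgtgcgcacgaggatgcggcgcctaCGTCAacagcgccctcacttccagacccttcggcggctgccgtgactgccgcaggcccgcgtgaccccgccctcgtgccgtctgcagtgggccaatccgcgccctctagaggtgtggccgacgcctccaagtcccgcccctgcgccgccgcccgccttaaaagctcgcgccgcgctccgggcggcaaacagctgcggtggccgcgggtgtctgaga
Rgs4: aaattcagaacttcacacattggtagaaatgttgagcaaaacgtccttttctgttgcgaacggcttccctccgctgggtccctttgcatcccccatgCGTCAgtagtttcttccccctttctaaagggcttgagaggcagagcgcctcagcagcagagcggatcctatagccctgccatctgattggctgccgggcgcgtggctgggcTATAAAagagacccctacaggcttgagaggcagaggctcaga

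Both strands of the 250 bases were searched for 5 motifs. They were the core and the full form (TGACGTCA) of the cAMP response element, where the full form contains the core, the TATA box, the heat shock motif (GAANNTTC) and the AP-1 motif (TGANTCA). All 7 genes had a promoter in the table. Rgs2 held the cAMP core alone, beginning 216 bases before its start. Rgs4 held the core 153 bases and the TATA box 42 bases before its start. The other 5 genes held no match to any of the 5 motifs in this window. Of 33469 promoter windows of this length, 18.2% held the core, 1.59% the full element, 12.9% the TATA box, 7.23% the heat shock motif and 6.34% the AP-1 motif, so a match to the core is common.

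In CA1 total RNA, Rgs2 had intensities of 541, 628, 406 and 489 in 8R pools, against 89.3, 83.3 and 86.1 in NIC pools. The lowest 8R pool was far above the highest NIC pool. The means were 516 ± 93 (SD, n = 4) in 8R and 86.2 ± 3.0 (SD, n = 3) in NIC, a change of 2.36 ± 0.13 log2 (SE), or 5.15-fold on the log2(intensity + 16) scale used for all changes here. This is the comparison from which Rgs2 was chosen, so it carries no p. Over all genes, 24.5% had every 8R array above every NIC array there. The 8R pool with the lowest Rgs2, number 3, had the highest sum of CA1 pyramidal markers, 1380 against 823, 856 and 897 in the other 8R pools, and the part of the markers in the level of Rgs2 was not tested.

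Polysome RNA and CA3 are not recorded as part of that choice, although polysome RNA came from the same supernatants as total RNA. In CA1 polysome RNA, Rgs2 had 495, 402 and 456 in 8R, against 183, 153 and 175 in NIC, and the groups did not overlap. Rgs2 rose by 1.32 ± 0.13 log2, or 2.51-fold (limma, Benjamini-Hochberg over 12716 genes, adjusted p = 1.52e-07), and its change ranked 29 among all genes. In this comparison 4.87% of genes were called higher and 3.46% lower, and 13% had every 8R array above every NIC array. All 19 alternatives kept the call, with changes between 1.13 and 1.41 log2.

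Rgs2 in CA3 total RNA had 276, 226, 204 and 206 in 8R, against 126, 108 and 119 in NIC. These groups did not overlap either. The rise was 0.86 ± 0.13 log2, or 1.82-fold (limma adjusted p = 2.72e-05), in a comparison with 14.2% of genes called higher and 20.2% with every 8R array above every NIC array. All 20 alternatives kept this call. CA3 polysome RNA had Rgs2 at 262, 247, 187 and 207 in 8R and 189, 185 and 175 in NIC. The lowest 8R pool lay within the range of NIC, and the change of 0.27 ± 0.13 log2 was not called (limma adjusted p = 0.237).

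**Figure D1:**
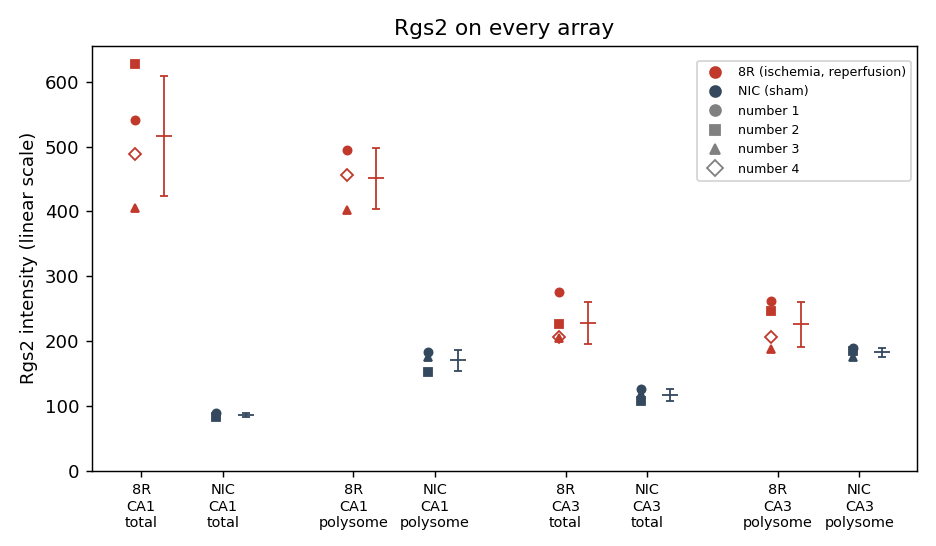
Rgs2 intensity (vertical axis, linear scale from 0) on every array of the 8 groups, with 8R left of NIC in each pair. Symbols give the number of the labels, taken as the pool number, and bars to the right of the points give the mean and SD. All 8R CA1 arrays lie at 402 or above, and no array of another group exceeds 276.

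The change of Rgs2 in CA1 was set against its change in CA3 in the same fit. In polysome RNA the CA1 change was larger by 1.05 ± 0.18 log2 (limma adjusted p = 0.0296). Rgs2 was the 1 gene called higher in this comparison, which is 0.00786% of those tested, and 1 other gene was called lower. The call was lost in 11 of the 26 alternatives, which include 9 of those that leave out 1 array, while the value stayed between 0.91 and 1.18 log2 and the adjusted p ranged from 0.000123 to 0.242. Without 8R number 4 the value was 1.01 (adjusted p = 0.0659). In total RNA the change was larger in CA1 by 1.50 ± 0.18 log2, given without a p because it holds the comparison used to choose the gene. There 0.0236% of genes were called higher.

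Rgs2 was also compared between polysome and total RNA. In NIC, every polysome array lay above every total RNA array in both regions. Rgs2 was 1.49-fold higher in polysome than in total RNA in NIC CA3 (0.58 ± 0.13 log2, limma adjusted p = 0.00137). In NIC CA1 it was 1.82-fold higher (0.86 ± 0.13 log2), given without a p because the NIC CA1 total RNA arrays were part of how Rgs2 was chosen. In CA1, 39.4% of genes were called higher in polysome RNA and 4.62% lower, and 49.3% had every polysome array above every total RNA array (8.26% below). In CA3, 21.5% were called higher and 31.1% had every polysome array above. After quantile normalization the CA1 value was 0.54 log2, and the CA3 call held in all 19 alternatives.

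In 8R this excess was not seen. For same-numbered arrays, polysome over total RNA of Rgs2 (intensity + 16) was between 0.917 and 0.99 in the 3 8R pools of CA1, against 1.70 to 1.89 in the 3 NIC pools. In CA3 it was between 0.92 and 1.09 in the 4 8R pools, against 1.42 to 1.62 in the 3 NIC pools. The 8R pools lay below the NIC pools in both regions, as they did for 29.2% of all genes in CA1 and 21.5% in CA3, so the absence of overlap is common among genes. The change of Rgs2 was smaller in polysome than in total RNA, by 1.04 ± 0.18 log2 in CA1, given without a p, and by 0.59 ± 0.18 log2 in CA3. Of all genes, 3.41% were called lower in this comparison in CA1.

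The CA3 difference was not called without a block for the pools (limma adjusted p = 0.0945). With the pool number as a fixed replicate block it was called at the same size (limma adjusted p = 0.00692). That block shares its numbers between 8R and NIC, which hold different rats. A random block that keeps the pools of 8R and NIC apart also called it (limma adjusted p = 0.00987). Without 8R number 4 the limma adjusted p was 0.0339. Over all 27 alternatives the adjusted p ranged from 0.00344 to 0.234. Of all genes, 0.11% were called lower in this comparison and 0.055% higher.

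Over the 8 groups, mean Rgs2 intensity ran in the order 516 in 8R CA1 total, 451 in 8R CA1 polysome, 228 in 8R CA3 total, 226 in 8R CA3 polysome, 183 in NIC CA3 polysome, 170 in NIC CA1 polysome, 117 in NIC CA3 total and 86.2 in NIC CA1 total RNA. Of the neighbours in this order, 8R CA1 polysome and 8R CA3 total RNA did not overlap, and neither did the last 3 groups. The other neighbours overlapped. In NIC total RNA, Rgs2 had 89.3, 83.3 and 86.1 in CA1, against 126, 108 and 119 in CA3. The CA1 arrays were below the CA3 arrays, as they were for 11.1% of genes (2.41% of genes were called higher in CA1 and 1.06% lower). The difference of -0.38 ± 0.13 log2 carries no p, since it uses the arrays from which Rgs2 was chosen.

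Rgs4 (probe set 17686406), also of the R4 subfamily, acts on Gi/o and Gq alpha subunits and is abundant in forebrain neurons. Rgs4 in CA1 total RNA had 421, 279, 235 and 370 in 8R, against 300, 131 and 197 in NIC. Pools within each group differed widely and the groups overlapped. The change was 0.64 ± 0.20 log2, without a p, and between 0.37 and 0.92 log2 when 1 array was left out. Rgs4 in CA1 polysome RNA had 359, 263 and 314 in 8R, against 433, 231 and 351 in NIC, a change of -0.08 ± 0.22 log2 (limma adjusted p = 0.879).

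The pools kept their order for Rgs4 between the RNA fractions of CA1, with number 1 highest and number 3 lowest in 8R, and number 1 highest and number 2 lowest in NIC. Total RNA of CA3 had Rgs4 at 401, 360, 291 and 322 in 8R and 309, 303 and 273 in NIC, and in CA3 polysome RNA it had 401, 374, 324 and 303 in 8R and 512, 428 and 373 in NIC. Both pairs of groups overlapped, and neither change was called (0.20 ± 0.20 log2, limma adjusted p = 0.548, and -0.31 ± 0.20 log2, adjusted p = 0.421).

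The ratio of polysome to total RNA of Rgs4 was lower in every 8R pool than in every NIC pool, as for 29.2% of genes in CA1 and 21.5% in CA3. It was between 0.855 and 1.11 in 8R and between 1.42 and 1.72 in NIC in CA1, and between 0.943 and 1.11 in 8R and between 1.35 and 1.63 in NIC in CA3. The change of Rgs4 was smaller in polysome than in total RNA by 0.72 ± 0.30 log2 in CA1, without a p, and by 0.51 ± 0.29 log2 in CA3, which was not called (limma adjusted p = 0.30). In NIC CA3, Rgs4 was higher in polysome than in total RNA by 0.54 ± 0.22 log2 (adjusted p = 0.0496), and 0.35 log2 after quantile normalization, which ended the call (adjusted p = 0.218, in a range from 0.000121 to 0.218 over 19 alternatives, of which 9 kept it). In NIC CA1 the difference was 0.68 ± 0.22 log2, without a p, and 0.30 log2 after quantile normalization.

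Rgs16 (probe set 17681025) is a further R4 member that acts on Gi/o and Gq alpha subunits. Total RNA of CA1 had Rgs16 at 76.3, 52.4, 70.7 and 74.4 in 8R, against 62.0, 37.9 and 38.8 in NIC. Only 8R number 2 lay within the range of NIC, and the change was 0.45 ± 0.12 log2, or 1.37-fold, without a p. Polysome RNA of CA1 had it at 103, 89.3 and 112 in 8R, against 85.0, 71.2 and 80.3 in NIC. All 8R arrays were above all NIC arrays, as for 13% of genes, and the change of 0.31 ± 0.13 log2 was not called (limma adjusted p = 0.148).

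In CA3 total RNA, Rgs16 had 66.3, 63.7, 68.6 and 55.3 in 8R, against 46.4, 48.3 and 57.0 in NIC, and 8R number 4 alone lay within the range of NIC. The change of 0.26 ± 0.12 log2 was not called (limma adjusted p = 0.159). It was called without 8R number 4 (0.31 log2, adjusted p = 0.0496), and over the 20 alternatives the adjusted p ranged to 0.354. In CA3 polysome RNA it had 67.3, 66.2, 71.7 and 84.4 in 8R and 69.2, 76.7 and 64.8 in NIC, with no difference beyond the spread (0.03 ± 0.12 log2, adjusted p = 0.907). In NIC CA3, Rgs16 was higher in polysome than in total RNA by 0.37 ± 0.13 log2 (adjusted p = 0.0242), a call that 16 of 19 alternatives kept. In NIC CA1 it was higher by 0.63 ± 0.13 log2, without a p.

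Rgs8 (probe set 17681012), the neighbouring gene of Rgs16 in the RefSeq annotation, is an R4 member that acts on Gi/o alpha subunits. In CA1 total RNA it had 192, 188, 224 and 196 in 8R, against 218, 220 and 226 in NIC, and in CA1 polysome RNA 185, 242 and 216 in 8R, against 221, 256 and 246 in NIC. In CA3 it had 150, 168, 177 and 130 in 8R and 167, 203 and 164 in NIC total RNA, and 139, 181, 153 and 127 in 8R and 154, 189 and 194 in NIC polysome RNA. Groups overlapped in all 4 comparisons. The changes lay between -0.24 and -0.14 log2, and the 3 that were tested were not called (limma adjusted p from 0.272 to 0.466). After quantile normalization the change in CA3 total RNA was -0.34 log2 and was called (adjusted p = 0.0135, against up to 0.778 in the other alternatives). Rgs8 thus had a negative change in all 4 comparisons, and Rgs16 a positive one in CA1 total, CA1 polysome and CA3 total RNA. In CA3 polysome RNA the change of Rgs16, 0.03 ± 0.12 log2, ran from -0.07 to 0.09 over 20 alternatives. No tested change of either gene was called with all arrays and the deposited values, and the difference between the neighbouring genes was not tested.

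**Figure D2:**
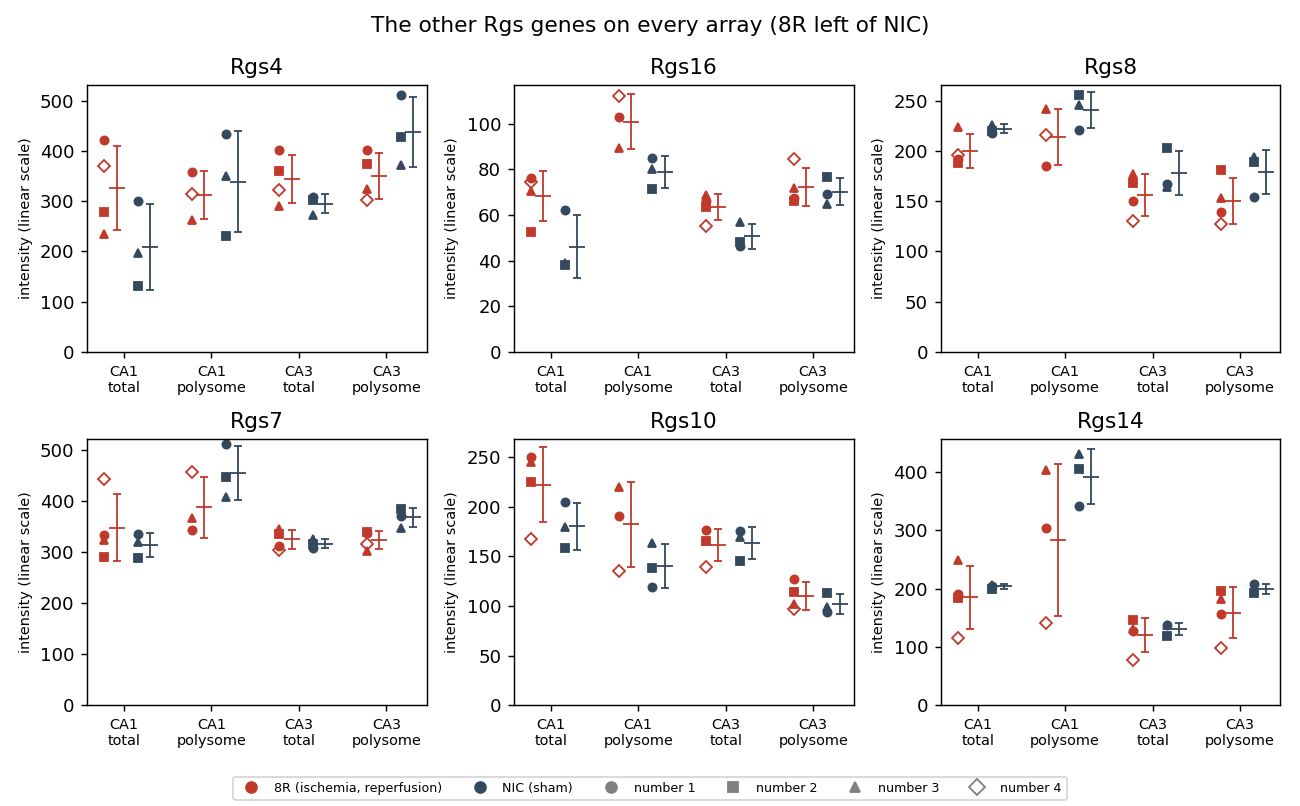
Intensity (vertical axes, linear scale from 0) of the other 6 genes on every array, with 8R left of NIC in each of the 4 settings of region and RNA. Symbols give the pool number, and bars give the mean and SD. Groups overlap in most settings, and 8R number 4 (open diamonds) is the lowest array for Rgs14 in all 4 8R groups.

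Rgs7 (probe set 17686902), the R7 member of the 7, acts on Gi/o alpha subunits and is stable only together with the beta subunit Gnb5. Rgs7 in CA1 total RNA had 333, 291, 324 and 444 in 8R and 336, 288 and 319 in NIC, and in CA3 total RNA 313, 335, 345 and 305 in 8R and 309, 317 and 326 in NIC. Apart from 8R number 4 in CA1, these arrays lay close together, and the changes were 0.13 ± 0.11 log2 in CA1, without a p, and 0.03 ± 0.11 log2 in CA3 (limma adjusted p = 0.887). Polysome RNA of CA1 had it at 343, 366 and 456 in 8R, against 511, 447 and 408 in NIC. The change of -0.23 ± 0.12 log2 was not called (adjusted p = 0.265).

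Without number 4, Rgs7 in CA1 polysome RNA was lower by 0.34 log2 in 8R and was called (limma adjusted p = 0.02, in a range from 0.02 to 0.607 over 19 alternatives). In CA3 polysome RNA it had 338, 340, 303 and 316 in 8R, against 370, 385 and 348 in NIC. Every 8R array was below every NIC array, as for 4.55% of genes, while the change of -0.17 ± 0.11 log2 was not called (adjusted p = 0.406). In NIC CA1, Rgs7 was higher in polysome than in total RNA by 0.51 ± 0.12 log2, without a p, and by 0.11 log2 after quantile normalization. Its ratio of polysome to total RNA was between 1.03 and 1.12 in 8R and between 1.27 and 1.53 in NIC pools of CA1. These did not overlap, as for 29.2% of genes, while the pools of CA3 overlapped.

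The partners of R7 proteins were measured by 4 tested genes of a list of 5, namely Gnb5, Rgs7bp, Rgs9bp, Gpr158 and Gpr179. None was called in CA1 total, CA1 polysome or CA3 polysome RNA. In CA3 total RNA, where 14.2% of all genes rose, Gpr158, a membrane protein that anchors Rgs7, rose by 0.58 ± 0.16 log2, or 1.49-fold (limma adjusted p = 0.0142). The list's median change there was 0.03 log2, against 0.09 over all genes.

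Rgs10 (probe set 17637588) is a small R12 member that acts on Gi/o alpha subunits and is known from both neurons and microglia. Rgs10 in CA1 total RNA had 250, 225, 245 and 167 in 8R, against 205, 158 and 179 in NIC, a change of 0.27 ± 0.14 log2, without a p. Polysome RNA of CA1 had it at 191, 220 and 135 in 8R, against 119, 138 and 163 in NIC. In both, number 4 was the lowest 8R pool and lay within the range of NIC, and the others were above it. The polysome change of 0.33 ± 0.15 log2 was not called with all arrays (limma adjusted p = 0.178). Without number 4 it was 0.51 log2 and called (adjusted p = 0.00574, in a range from 0.00574 to 0.462 over 19 alternatives).

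In CA3, Rgs10 had 176, 165, 165 and 139 in 8R and 175, 145 and 169 in NIC total RNA, and 127, 114, 102 and 96.9 in 8R and 94.2, 113 and 99.2 in NIC polysome RNA. Groups overlapped, with changes of -0.02 ± 0.14 log2 (limma adjusted p = 0.951) and 0.09 ± 0.14 log2 (adjusted p = 0.761). Number 4 had the highest sum of the 10 microglia markers in all 4 8R groups, for example 768 in CA1 polysome RNA against 581 and 615 in the other pools, and it was there the pool with the lowest Rgs10. Rgs10 was the 1 listed gene called lower in polysome than in total RNA of NIC. In NIC CA3 it was lower by 0.60 ± 0.15 log2 (adjusted p = 0.00265), a call that held in all 19 alternatives, where 16.9% of genes were called lower. In NIC CA1 the difference was -0.34 ± 0.15 log2, without a p, and -0.68 log2 after quantile normalization.

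Rgs14 (probe set 17718150), of the R12 subfamily, is a scaffold that binds Gi/o alpha subunits and Ras proteins, and in mouse it is a well-known marker of CA2 pyramidal neurons, which lie between CA1 and CA3. In CA1 total RNA it had 191, 184, 249 and 116 in 8R, against 205, 199 and 207 in NIC, and in CA1 polysome RNA 303, 403 and 142 in 8R, against 341, 405 and 431 in NIC. In CA3 it had 127, 147, 131 and 78.7 in 8R and 137, 119 and 137 in NIC total RNA, and 157, 196, 183 and 97.9 in 8R and 208, 193 and 196 in NIC polysome RNA. The NIC pools lay close together in total RNA, and 8R number 4 was the lowest array in each 8R group.

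No change of Rgs14 was called. The tested changes were -0.56 ± 0.25 log2 in CA1 polysome RNA (limma adjusted p = 0.175), -0.13 ± 0.24 log2 in CA3 total RNA (adjusted p = 0.767) and -0.34 ± 0.24 log2 in CA3 polysome RNA (adjusted p = 0.45), and that in CA1 total RNA was -0.17 ± 0.24 log2. A call was made in CA1 polysome RNA when number 3, the pool with the highest Rgs14, was left out (-0.86 log2, limma adjusted p = 0.0229). Over 19 alternatives the adjusted p ranged to 0.803, and leaving out 1 array gave changes from -0.86 to -0.15 log2. The 10 CA2 pyramidal markers, a list without Rgs14, summed lowest in number 4 too, for example to 919 in 8R CA1 polysome RNA against 1060 and 1260 in the other pools, and to 1160 in 8R CA3 total RNA against 1410 to 1520. In NIC total RNA the CA2 markers summed to between 1090 and 1160 in CA1 and between 1260 and 1370 in CA3. In NIC polysome RNA they summed to between 1030 and 1130 in CA1 and between 925 and 942 in CA3. Number 3 of 8R CA1 polysome RNA, highest in Rgs14, also had the highest sum of CA1 pyramidal markers, 1870 against 1140 and 1180. The parts of the dissected borders and of these markers in the level of Rgs14 were not tested.

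Rgs14 had the largest regional difference of the 7 in NIC. It was higher in CA1 than in CA3 by 0.92 ± 0.25 log2, or 1.89-fold, in polysome RNA (limma adjusted p = 0.00898), which was 0.69 log2 after quantile normalization (adjusted p = 0.105). In total RNA the difference was 0.58 ± 0.25 log2, without a p. In both, every CA1 array was above every CA3 array, as were 53.1% of genes in polysome and 15% in total RNA. It was also higher in polysome than in total RNA of NIC CA1, by 0.89 ± 0.25 log2, without a p, and by 0.50 log2 after quantile normalization. For same-numbered arrays, polysome over total RNA of Rgs14 was between 1.20 and 1.58 in 8R and between 1.61 and 2.01 in NIC in CA1, and between 1.20 and 1.36 in 8R and between 1.39 and 1.55 in NIC in CA3. These ranges nearly touch, pools without overlap are as common among genes as given for Rgs2, and the difference of its changes between the fractions of CA3 was not called in any of 27 alternatives.

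**Figure D3:**
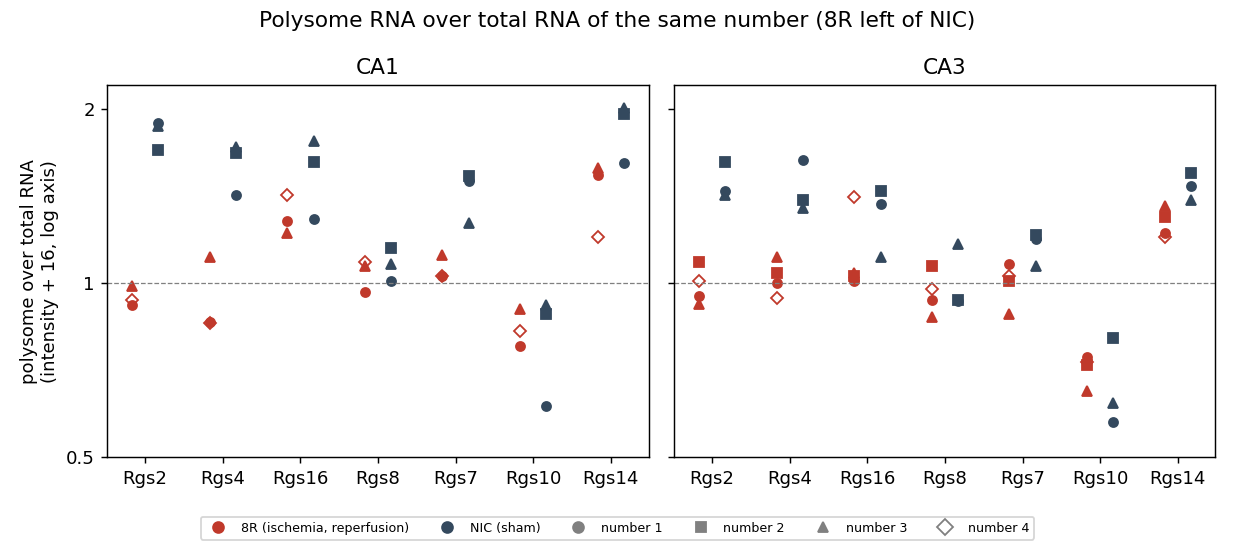
Polysome over total RNA of same-numbered arrays (vertical axes, intensity + 16, log axis) for the 7 genes in CA1 and CA3, with 8R left of NIC and the dashed line at equal values. For Rgs2, Rgs4 and Rgs14 all 8R pools lie below all NIC pools in both regions, and for Rgs7 in CA1, a pattern that 29.2% of genes show in CA1 and 21.5% in CA3.

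The other family members were counted by a list of 21 Rgs-named genes. Of these, 20 had a probe set of their own and 15 were tested, the 7 listed genes and 8 others. Rgs1, Rgs11, Rgs18, Rgs21 and Rgs22 fell under the filter on low values, and Rgs6 had no probe set with its symbol alone. Rgs17, an RZ member that acts on Gi/o and Gz alpha subunits, had 139, 123, 139 and 116 in 8R CA1 total RNA, against 93.5, 83.0 and 103 in NIC CA1 total RNA. It rose by 0.42 ± 0.13 log2, or 1.34-fold (limma adjusted p = 0.0162), without overlap, as for 24.5% of genes. The call was lost without NIC number 2 (0.35 log2, adjusted p = 0.102) and without 8R number 1 (0.39 log2, adjusted p = 0.0511), in a range from 2.39e-05 to 0.102 over 20 alternatives. In CA1 polysome and CA3 total RNA Rgs17 was not called (limma adjusted p = 0.292 and 0.153). Without 8R number 4 it was called higher in both (0.38 log2, limma adjusted p = 0.018, and 0.39 log2, adjusted p = 0.00149).

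Rgs19, another RZ member, moved the other way. Rgs19 in CA1 total RNA had 69.0, 81.8, 89.6 and 66.7 in 8R, against 102, 110 and 109 in NIC. Every 8R array was below every NIC array, as for 10.1% of genes. Rgs19 fell by 0.42 ± 0.11 log2 (limma adjusted p = 0.00632) and kept this call in all 20 alternatives. In CA1 polysome RNA every 8R array was also below every NIC array, as for 11.2% of genes, with a change of -0.35 ± 0.12 log2 that was not called (adjusted p = 0.0721). CA3 total RNA had it at 77.1, 88.3, 81.9 and 78.5 in 8R, against 95.1, 98.7 and 94.9 in NIC, again without overlap, as for 4.42% of genes below NIC, and the change of -0.21 log2 was not called (adjusted p = 0.236). The third RZ member, Rgs20, was not called in any of the 4 comparisons (adjusted p from 0.188 to 0.966).

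Over the 8 tested family genes that are not listed, 1 was called higher in CA1 total RNA, Rgs17, and 1 lower, Rgs19, against 20.1% and 6.15% of all genes. The call of Rgs17 was lost without NIC number 2 and without 8R number 1. In CA1 polysome RNA, 1 of all 15 tested family genes was called higher, Rgs2, against 4.87% of all genes. There limma called 0 lower, with 2 lower at an unadjusted p under 0.05, against 3.46% of all genes called lower. In CA3 total RNA, 1 was called higher, again Rgs2, against 14.2% of all genes, and 0 lower, with 0 lower at an unadjusted p under 0.05 and 1.34% of all genes called lower. Without 8R number 4, 3 of the 15 were called higher in each of CA1 polysome and CA3 total RNA. In CA1 polysome RNA 1 was then called lower.

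In CA3 polysome RNA, limma called 0 family genes higher and 0 lower, with 2 higher and 0 lower at an unadjusted p under 0.05, and 2.38% and 0.275% of all genes were called. The median change of the 15 genes was 0.14 log2 in CA1 total, 0.02 in CA1 polysome, 0.03 in CA3 total and -0.03 in CA3 polysome RNA, against 0.04, 0.01, 0.09 and 0.04 over all genes. Unlike the counts, the median of CA1 total RNA includes the listed genes, and Rgs2 was chosen from that comparison. In NIC polysome RNA, 6 of the 15 were called higher in CA1 than in CA3 (Rgs3, Rgs5, Rgs8, Rgs10, Rgs12 and Rgs14), against 27.7% of all genes. None of these 6 calls held after quantile normalization.

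**Figure D4:**
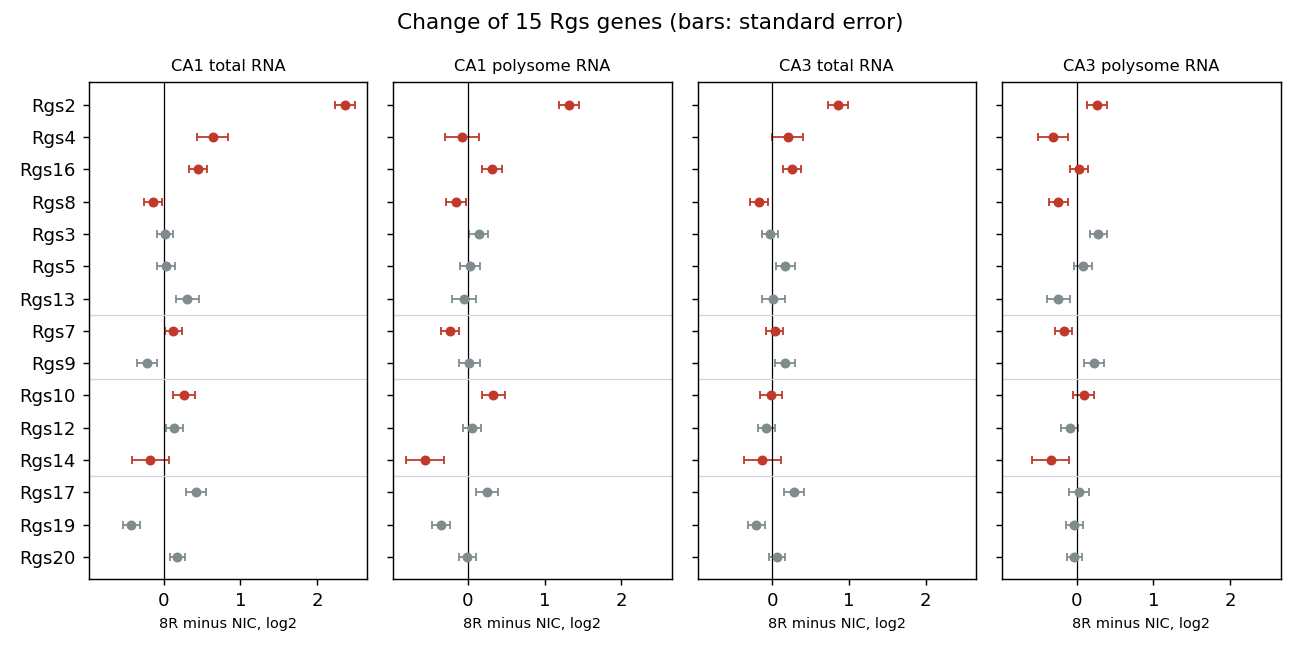
Change between 8R and NIC (horizontal axes, log2, with SE bars) of the 15 tested Rgs genes in the 4 settings, with the 7 listed genes in red. Grey lines divide the R4, R7, R12 and RZ subfamilies from top to bottom, and Rgs2 stands at 2.36, 1.32, 0.86 and 0.27.

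Rgs2 lies near other family genes on its chromosome. In the RefSeq annotation of GRCr8 the next protein-coding gene beside it is Rgs13, followed by Rgs1 and Rgs21. Rgs13 had 57.5, 37.3, 50.1 and 40.3 in 8R CA1 total RNA, against 34.6, 33.2 and 33.8 in NIC. Every 8R array was above every NIC array, as for 24.5% of genes, and its change of 0.31 ± 0.15 log2 was not called (limma adjusted p = 0.126). In the other 3 settings its groups overlapped. Rgs1 and Rgs21 were under the filter. Rgs5, the gene beside Rgs4, was not called in any of the 4 comparisons (adjusted p from 0.385 to 0.929).

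Genes that act before and after Rgs proteins were taken from lists made for this work. Of 20 tested G protein subunits, 2 rose and 5 fell in CA1 total RNA, where 20.1% of all genes rose and 6.15% fell. The rises were those of Gna13, an alpha subunit (0.56 ± 0.12 log2, limma adjusted p = 0.00103), and of the gamma subunit Gng5 (0.49 log2, adjusted p = 0.00156). The falls were those of Gnaz, the Gz alpha subunit (-0.43 log2, adjusted p = 0.00578), Gnao1, the Go alpha subunit (-0.22 log2, adjusted p = 0.0282), the gamma subunits Gng7 (-0.46 log2, adjusted p = 0.0038) and Gng3 (-0.40 log2, adjusted p = 0.0215), and the beta subunit Gnb3 (-0.35 log2, adjusted p = 0.0265). Gna13 also rose in CA1 polysome (0.65 log2, adjusted p = 0.00197) and CA3 total RNA (0.41 log2, adjusted p = 0.0204), where 4.87% and 14.2% of all genes rose. In CA3 polysome RNA, where 2.38% of all genes rose, 1 other subunit, the alpha subunit Gna12, rose (0.33 log2, limma adjusted p = 0.042). The list's median change was -0.05 log2 in CA1 total RNA. None of the 4 genes of Gq alpha subunits, on which Rgs2 acts, was called in any of the 4 comparisons.

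Of 20 tested receptors that signal through Gq or Gi/o, 0 rose and 3 fell in CA1 total RNA, against 20.1% and 6.15% of all genes. These were Chrm1, the main muscarinic receptor of pyramidal cells (-0.62 ± 0.15 log2, limma adjusted p = 0.00192), Chrm5 (-0.47 log2, adjusted p = 0.0177) and the serotonin receptor Htr1a (-0.80 ± 0.18 log2, adjusted p = 0.00115). Chrm1 and Htr1a also fell in CA1 polysome RNA (-0.50 log2, adjusted p = 0.0434, and -0.66 log2, adjusted p = 0.0284), where 3.46% of all genes fell. None of the receptors was called in CA3. Of 13 tested effectors, the potassium channel gene Kcnj9 rose in CA1 total and polysome RNA (0.46 and 0.41 log2, adjusted p = 0.00396 and 0.0371), where 20.1% and 4.87% of all genes rose. The adenylyl cyclase gene Adcy5 fell in CA1 total RNA (-0.39 log2, adjusted p = 0.00714), where 6.15% of all genes fell. In CA1 polysome RNA Kcnj3, a potassium channel gene of the same family as Kcnj9, fell by 0.54 ± 0.15 log2 (adjusted p = 0.0212) and Plcb1, a phospholipase C that Gq activates, by 0.73 ± 0.22 log2 (adjusted p = 0.0332). There 3.46% of all genes fell. None of the 13 effectors was called in CA3. The CA1 pyramidal markers had a median change of -0.33 log2 in CA1 total RNA, and its part in these falls was not tested.

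Of 7 receptor kinases and arrestins, Arrb2, which uncouples receptors from G proteins, fell in total RNA of CA1 (-0.82 ± 0.14 log2, limma adjusted p = 6e-05) and CA3 (-0.58 ± 0.14 log2, adjusted p = 0.00503). The others were not called, and 6.15% of all genes fell in total RNA of CA1 and 1.34% in that of CA3. The N-terminal degradation pathway, which removes Rgs4, Rgs5 and Rgs16 proteins, was measured by 5 genes. In CA3 total RNA 4 of the 5 rose, Ate1, Ado, Ubr1 and Ubr2, against 14.2% of all genes, and their list had a median change of 0.36 log2, against 0.09 over all genes. Ate1, the arginine transferase of the pathway, rose by 0.86 ± 0.11 log2 in CA1 (adjusted p = 1.76e-06) and by 0.45 ± 0.11 log2 in CA3 total RNA (adjusted p = 0.00708). Ubr1 was the other gene called in CA1 total RNA, where 20.1% of all genes rose and 6.15% fell. None of the 5 was called in polysome RNA, where their median change was -0.05 log2 in both regions.

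Genes known to respond to cAMP or CREB, as Rgs2 does, did not move one way. Of 19, 6 rose and 3 fell in CA1 total RNA, against 20.1% and 6.15% of all genes, with a median change of 0.23 log2 against 0.04 over all genes. Ptgs2, the inducible cyclooxygenase, and Npas4, an activity-induced transcription factor, rose by 2.39 ± 0.30 and 2.22 ± 0.33 log2 (limma adjusted p = 8.49e-07 and 1.03e-05), and Nptx2, a synaptic pentraxin, by 1.44 ± 0.20 log2 (adjusted p = 4.39e-06). Ptgs2 and Npas4 also rose in CA1 polysome RNA, by 2.32 and 2.56 log2 (adjusted p = 2.41e-05 for both), where 4.87% of all genes rose. The nuclear receptor genes Nr4a1, Nr4a2 and Nr4a3 fell in CA1 total RNA, by 0.92, 0.80 and 1.25 log2 (adjusted p = 2.27e-06, 7.97e-06 and 2.54e-11). Rgs2 is not on this list, and its polysome change of 1.32 against 2.36 log2 in total RNA of CA1 differs from the values of Ptgs2 and Npas4, although these differences between genes were not tested.

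Across the 27 arrays, the log2 values most like those of Rgs2 were those of Jmjd6, an oxygenase of the nucleus (Pearson r = 0.942), Psph, which makes serine (0.94), Gadd45a, a growth arrest gene (0.935), Eif2s2, a subunit of initiation factor eIF2 (0.931), and Arih2, a ubiquitin ligase (0.929). They were followed by Hspd1, a mitochondrial chaperone (0.928), Gtf2h1 (0.927), Gadd45g (0.924), Ppp2r1b (0.919) and Zpr1 (0.918). These arrays share their 8 groups and pools, so the values describe these groups and carry no p. Side by side with the 2.36, 1.32, 0.86 and 0.27 log2 of Rgs2 in CA1 total, CA1 polysome, CA3 total and CA3 polysome RNA, the changes were 1.62, 0.75, 0.94 and 0.34 for Gadd45a and 2.65, 2.04, 1.63 and 0.85 for Gadd45g. All 10 had a smaller change in polysome than in total RNA of both regions, as Rgs2 had. They were picked for likeness to Rgs2 on these same arrays, so this follows largely from the choice. Over all genes the median of this difference was -0.06 log2 in CA1 and -0.07 log2 in CA3.

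Within the 7 genes, the correlation with Rgs2 over the 27 arrays was 0.606 for Rgs16, 0.35 for Rgs4, 0.33 for Rgs10, 0.172 for Rgs7, 0.045 for Rgs14 and -0.052 for Rgs8. The genes nearest to each other member were different ones. Rgs14 followed Cracdl (0.974), Pde8b, a cAMP phosphodiesterase (0.969), and Cdc40 (0.961), and Rgs16 followed Heatr1 (0.925), Ewsr1 (0.922) and Mcm4 (0.904). Rgs8 was nearest to Zbtb20, a transcription factor of CA1 neurons (0.915), Rgs10 to Mxi1 (0.90), Rgs7 to Foxj3 (0.898) and Rgs4, the least matched of the 7, to Anxa4 (0.795).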

How the data were processed

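The authors deposited linear intensities, 1 value per probe set and array, for 36685 probe sets on 27 arrays. Per the submitters' processing notes, the tools include PLIER and Expression Console of Affymetrix, whose versions are not given. Normalization between arrays is not given in the sources used here, and neither is a genome build. Of the probe sets, 18511 had 1 symbol, 575 several and 17599 none, and 18394 of the first kind matched a current RefSeq record. Values were taken as log2(intensity + 16), and genes under the 30th percentile of the mean (5.39 log2) were left out. One limma 3.58.1 model (R 4.3.3) with 8 group means and an intensity trend gave changes and their SE. Adjusted p-values are Benjamini-Hochberg over 12716 genes, two-sided, with 0.05 as threshold. A change is 8R minus NIC, polysome minus total RNA or CA1 minus CA3, and it understates the change of dim genes. The fit was tested on simulated data.

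For the 7 listed genes, comparisons that use the CA1 total RNA arrays carry no p, and counts of called family genes there leave them out. The members and all lists were chosen with earlier results of these data known. The genes named are the 7, all other Rgs-named genes, called members of each list in the comparisons described (up to 6 of the largest changes) and the genes most correlated with a member.

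Per the labels, total and polysome RNA came from the same supernatants. Deviations of same-numbered arrays of a region correlated between 0.28 and 0.77 over 7 pairs in 8R and between -0.04 and 0.22 over 6 pairs in NIC, so the numbers pair the 8R arrays but not clearly the NIC arrays. The number of arrays limits the precision. Alternatives covered pseudocounts, filters, scaling, array weights, replicate blocks, probe set choice and left-out arrays.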

Additional observations from a re-analysis of the deposited data

Results flagged for a closer look

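The change of Rgs2 differed between the regions in polysome RNA, where it was larger in CA1 than in CA3 by 1.05 log2 (limma interaction, adjusted p = 0.0296). Of 26 alternatives, only 15 kept this call, and the limma adjusted p ranged from 0.000123 to 0.242.

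For Rgs3, 1 array of 8R CA3 total RNA stood apart. The arrays had intensities of 48.0, 71.0, 70.4 and 74.2, and the gap below the other three was 0.854 of the group's range. For Rgs17, 1 array of 8R CA3 polysome RNA stood apart in the same way, with 147, 148, 148 and 103 and a gap of 0.962 of the range. The lone array was number 1 for Rgs3 and number 4 for Rgs17. Both gaps are above Dixon's limit for 4 samples. In all 45 groups were tested, and chance marks about 1 in 20 groups.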

How the results depend on the processing

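A pseudocount of 64 lowered the change of Rgs2 in CA1 total RNA to 1.94 log2. The Rgs2 difference between regions in polysome RNA lost its call with only the groups compared (1.05), without 8R number 4 (1.01) and in 9 of the fits that leave out 1 array, whose values ran from 0.97 to 1.13. The Rgs2 difference between RNA fractions in CA3 gained a call with array weights (-0.71), with a fixed or a random replicate block (-0.59 in both), without 8R number 4 (-0.60) and without 8R number 4 of CA3 total RNA alone. Leaving out 1 array gave -0.66 to -0.50. After quantile normalization Rgs8 turned from 0.11 to -0.28 log2 in NIC polysome against total RNA of CA1 (-0.05 with arrays scaled to 1 median), and from -0.02 to 0.17 in the difference of changes between fractions in CA1, both without a p.

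The count of unlisted family genes called higher in CA1 total RNA, 1, was 2 with array weights and 0 to 1 when 1 array was left out. The counts that follow are over all 15 tested family genes, the listed ones included. In CA1 polysome RNA, 3 were called higher with array weights, with the fixed block and without number 4, against 1. Those called lower there were 1 after quantile normalization, 2 with array weights and 1 without number 4, against 0, and 0 to 2 when 1 array was left out. In CA3 total RNA, 3 were called higher with array weights, 2 with the fixed block and 3 without number 4, against 1, and 1 to 2 when 1 array was left out, and 2 were called lower after quantile normalization, against 0. The fixed replicate block shares its numbers between 8R and NIC, which hold different rats. Between 8R and NIC it added calls for Rgs10 (0.44 log2, limma adjusted p = 0.00834) and Rgs17 (0.37 log2) in CA1 polysome RNA and for Rgs17 in CA3 total RNA (0.37 log2). Beside these and the Rgs2 difference between fractions, the calls it added lie between NIC groups, where the numbers do not clearly pair, and it ended none. Over 40 settings, 186 uncalled values changed sign and stayed uncalled. The causes were not tested. With 3 or 4 arrays in a group, small changes of genes that vary between arrays could go undetected.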
